A study of Sus scrofa with 2 samples.

Results

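Chromosome 2 of the pig was represented by 11097 probes of the array, those whose deposited position lies on that chromosome and which are not control spots, of 177440 such probes in all. An angiosarcoma-like liver tumor and a non-tumor control tissue were each read on 1 array. The tumor sample is labelled with a single intraperitoneal shot of diethylnitrosamine (DENA) at 200 mg/kg body weight and with resection 10 months later. The labels carry the same treatment text for the control tissue, and they do not say whether its donor animal received it. In both hybridisations the DNA came from female pigs, and Cy3 marked the tissue and Cy5 the reference liver. The tumor was cut from paraffin sections by micro-dissection. Any normal cells left in the sample would take part in its values, and their share is not stated. Whether both arrays used the same reference DNA is not stated, each tissue lay on its own slide, and with 1 array per tissue the slide, the animal and the tissue cannot be told apart. No test between the tissues was therefore possible, and no p-value is given.

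Array-based comparative genomic hybridization (aCGH) lets tissue DNA and reference DNA compete for probes of known position, so that a probe in a lost stretch gives a lower ratio and a probe in a gained stretch a higher one. DENA is an alkylating carcinogen that liver enzymes turn into its reactive form, and angiosarcoma is a malignant tumor of the endothelium. Chromosome 2 is one of the larger pig autosomes and carries, at the tip of its short arm, the imprinted growth factor gene IGF2. If every cell had lost 1 of 2 copies of a stretch, the log2 ratio there would be -1, and with 3 copies it would be 0.58.

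The probes, each 45 bases long, ran from position 1 to 140103320 with a median spacing of 10175 bp. The widest spacing, 296000 bp, lay between 59006720 and 59302676. Positions are given as in the design of the array, and no source used here names their genome build. The median background-subtracted signal of these probes was 71.3 in the tumor channel against 124 in the reference channel beside it. The control array was dimmer, with 50.6 in the tissue channel and 96.9 in the reference channel. Signals were well above background in the tissue channel for 80.6% of the probes on the tumor array and for 76.6% on the control array, and none of the probes was flagged as an outlier on either array. The noise between neighbouring probes, taken from the differences of successive ratios (the derivative log ratio spread), amounted to 0.391 for the tumor and 0.407 for the control tissue.

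Ratios are relative to the array's own median over chromosomes 1 to 18, which was set to 0, and the chromosome was read in windows of 1 Mb. 140 windows held between 23 and 98 probes, with a median of 81, and the 3 probes beyond 140 Mb were too few for a window. As a whole the chromosome was shifted little on either array. The median over windows was 0.04 on the tumor array (95% interval from order statistics over windows, -0.05 to 0.10) and 0.00 on the control array (-0.02 to 0.03). The windows themselves were spread widely, from -0.49 to 0.39 on the tumor array with an SD of 0.223, and from -0.25 to 0.31 on the control array with an SD of 0.103. No window of either array reached -1.

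On the tumor array 25 windows had a median of at most -0.25, which is 17.9% of the windows of chromosome 2 against 12.1% of all autosomal windows. A median of at least 0.25 was found in 18 windows, or 12.9%, against 9.46% of all autosomal windows. The split of low against high windows depended on the centre of the array. With centring on the mode, and likewise with normexp background correction, 36 windows were low and 5 were high. With a trend on local brightness removed 0 were low and 1 was high, and with the control array subtracted 0 were low and 4 were high. On the control array 1 window was low and 1 was high, where the shares over all autosomes were 0.326% and 0.699%. With normexp 24 windows of the control array were low and 3 were high, and with centring on the mode 0 were low and 4 were high. In the 25 low windows of the tumor array the control array had medians from -0.25 to -0.07 with a middle value of -0.16, and in the 18 high windows it had medians from -0.00 to 0.20 with a middle value of 0.08. The windows of the tumor array formed 34 runs of one sign, the longest of 42 windows from 75 to 117 Mb. The control array had 46 runs, the longest of 11 windows from 92 to 103 Mb. This order turned with the centre: with centring on the mode the longest run was 25 windows on the tumor array, from 80 to 105 Mb, and 51 windows on the control array, from 71 to 122 Mb, both above 0.

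**Figure D1:**
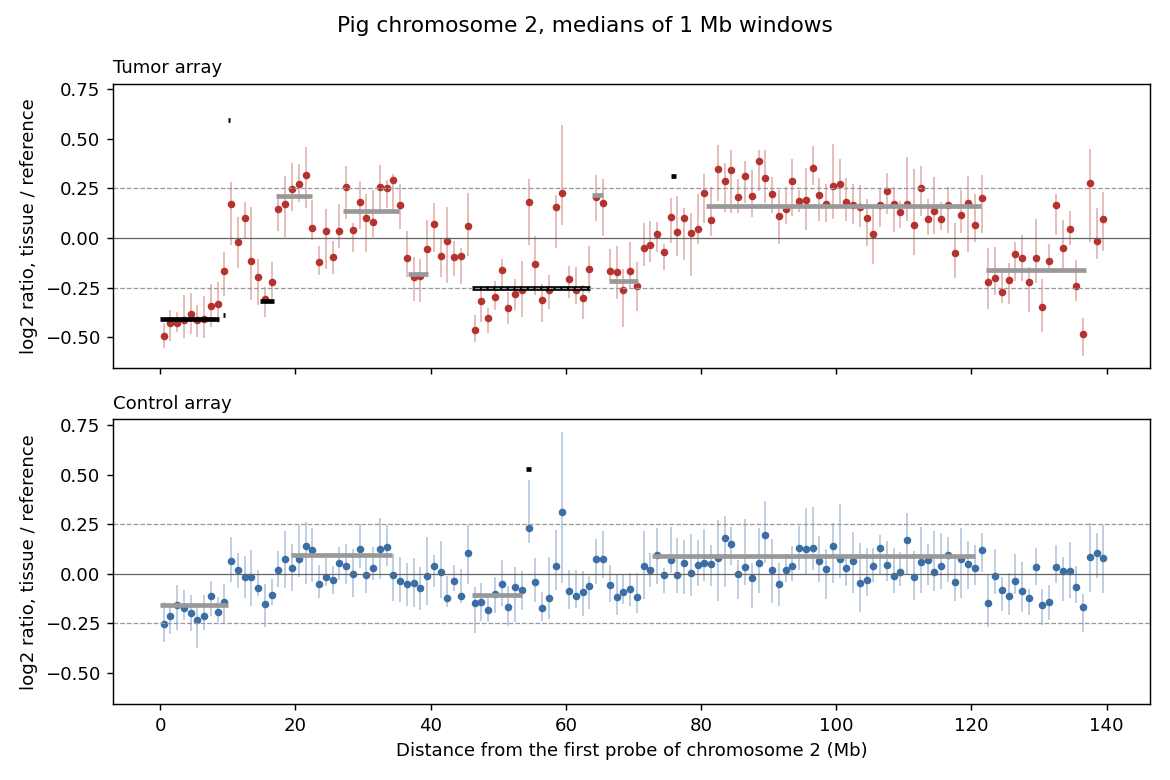
Median log2 ratio of tissue over reference in 1 Mb windows of chromosome 2, tumor array above and control array below, against distance from the first probe. Vertical lines are 95% order-statistic intervals over probes, black bars are means of called intervals, grey bars are means of stretches that passed the score and not the limit on the mean, called intervals of under 20 probes on the control array are not drawn, and the tumor windows range from -0.49 to 0.39 where the control windows range from -0.25 to 0.31.

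The start of the chromosome held the lowest window and the lowest called loss of the tumor array. The first window, with 85 probes, had a median of -0.49 on the tumor array (95% interval over probes -0.56 to -0.43) and of -0.25 on the control array (-0.35 to -0.14), in both cases the lowest window of the chromosome. These intervals cover the spread among neighbouring probes of 1 array and not that between animals. From 0 to 9 Mb 9 windows in a row were low on the tumor array, the longest such run of the chromosome. Over all probes of the first 10 Mb the tumor had a median of -0.39 and the control tissue one of -0.20. Intervals were called with an ADM-1-like score, the mean of a run of probes times the square root of their number, divided by the noise of the array. A run needed at least 3 probes, a score of 6 and a mean of 0.25 in size. The loss at this end, from 1 to 8642320, held 665 probes, of which 599 had a ratio under 0 in the tumor and 488 in the control tissue. Its mean of -0.41 (SD over probes 0.36) corresponds to 0.753 of the level at the array's centre, and the control array had 0.894 of it. Across its end the median of the tumor array went from -0.41 over the last 50 probes inside to -0.07 over the next 50, while that of the control array went from -0.21 to -0.15. This loss was not called with normexp, with centring on the mode, with the control array subtracted or with a trend on local brightness removed. With that trend removed its mean was -0.054 in the tumor and -0.012 in the control tissue.

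After this loss came a short loss and a short gain. The loss from 9225951 to 9634845 had a mean of -0.39 over 40 probes (SD 0.32) on the tumor array and of -0.21 (SD 0.32) on the control array. The gain from 10027001 to 10265695 had a mean of 0.59 over 19 probes (SD 0.47) on the tumor array and of 0.43 (SD 0.46) on the control array. Of its probes 18 lay above 0 in the tumor and 16 in the control tissue. On the tumor array 13 of the 19 were well above background in both channels, and 12 of these lay above 0 with a mean of 0.48 (SD 0.52). On the control array 10 were, of which 9 lay above 0, and their mean was 0.43 (SD 0.34). This gain was not called with the deposited log ratio, with normexp, with centring on the mode, with a trend on local brightness removed or with the control array subtracted. It was not called at a score of at least 12 either. The next loss, at 14791676 to 16784170, averaged -0.32 over 144 probes (SD 0.33) in the tumor, where the control tissue averaged -0.12 (SD 0.30). This loss was not called with normexp, with centring on the mode, with the control array subtracted or with a trend on local brightness removed, where its mean was above 0 in both tissues, 0.05 and 0.04. The short loss before it was not called in these 4 settings either, nor with the deposited log ratio. Neither of these losses was called at a score of at least 12.

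The longest called loss covered 17.4 Mb, from 46112176 to 63547545. Its mean over 1200 probes was -0.25 (SD 0.40) on the tumor array, at the limit set on the mean, and -0.06 (SD 0.38) on the control array. With the deposited log ratio the same stretch passed the score with a mean of -0.22 and was therefore not called, and with the control array subtracted it ran from 45786576 to 63557720 with a mean of -0.16. With normexp and with centring on the mode it was taken up in 1 lowered stretch that began at position 1 and was 72.7 and 75.2 Mb long, with means of -0.19 and -0.16. The loss at the start of the chromosome was in that stretch too, and with the control array subtracted it had a mean of -0.22. The longest loss was called in none of these settings, nor with a trend on local brightness removed. Its left edge was the sharpest of the edges examined. Over the 50 probes before it the median was 0.16 in the tumor and 0.13 in the control tissue, and over the first 50 probes inside it the medians were -0.54 and -0.29. The median reference signal rose across the same edge from 110 to 615 on the tumor array and from 83.6 to 462 on the control array. The right edge was flatter, from -0.29 to -0.01 on the tumor array and from -0.10 to -0.04 on the control array.

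This loss was not uniform. The window from 46 to 47 Mb had a median of -0.46 on the tumor array (95% interval over probes -0.52 to -0.39) and of -0.15 on the control array (-0.30 to -0.06). The windows from 54 to 55 Mb and from 59 to 60 Mb, inside the same loss, were above 0 on both arrays. The first had medians of 0.18 in the tumor and 0.23 in the control tissue over 49 probes. The second had 0.23 and 0.31 over 23 probes, the fewest of any window, and it contains the widest gap between probes. They were the highest windows of the control array on this chromosome. Within the first of them the control array had a called gain from 54177251 to 54811845 with a mean of 0.53 over 26 probes (SD 0.41), and the tumor array had a mean of 0.22 (SD 0.48) there. The window from 58 to 59 Mb, also inside this loss, had medians of 0.15 in the tumor and 0.04 in the control tissue.

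**Figure D2:**
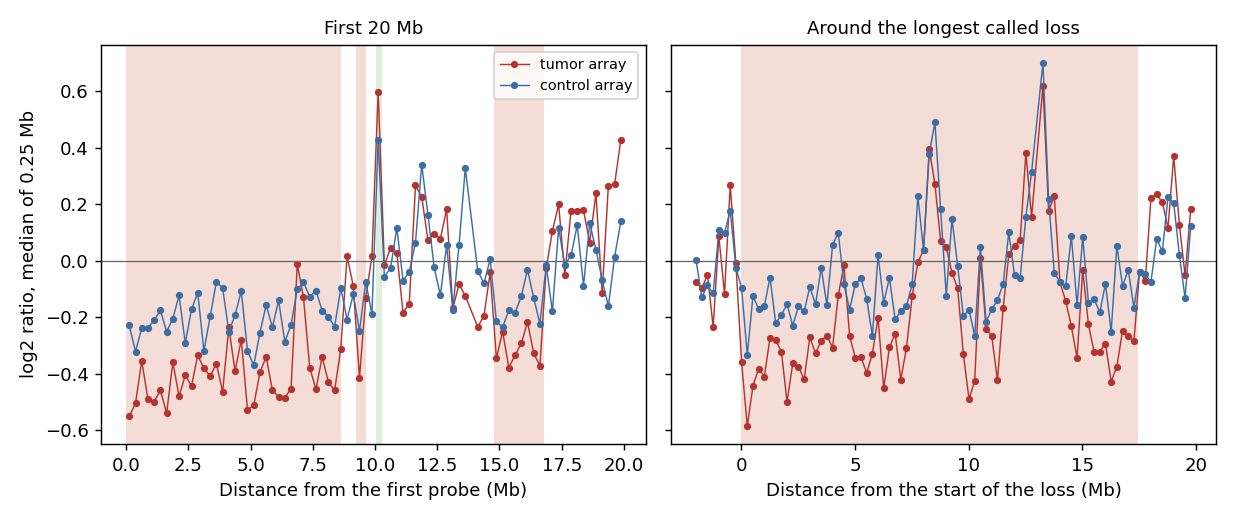
Medians of 0.25 Mb windows on the tumor array (red) and the control array (blue) over the first 20 Mb and around the longest called loss, against distance from the first probe and from the start of that loss. Pink bands are losses and the green band is a gain called on the tumor array, and inside the longest loss, whose mean is -0.25 on the tumor array, the profile rises above 0 on both arrays where the windows of 0.18 and 0.23 lie.

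Further along, the tumor array had wide stretches that passed the score with a mean under 0.25 in size. The widest was raised, from 80750651 to 121342470, with a mean of 0.16 over 3362 probes (SD 0.55) on the tumor array and of 0.09 (SD 0.58) on the control array. It holds the highest windows of the tumor array. These were the windows from 88 to 89 Mb with 0.39 (95% interval over probes 0.24 to 0.45), from 96 to 97 Mb with 0.35 (0.27 to 0.46) and from 82 to 83 Mb with 0.35 (0.19 to 0.47). The control array had 0.06, 0.13 and 0.08 in them. Shorter raised stretches were found from 17204076 to 22482170 with a mean of 0.21, from 27013701 to 35297120 with 0.14 and from 63938776 to 65551095 with 0.22, where the control array had 0.12, 0.08 and 0.16. Lowered stretches of this kind lay from 36621676 to 39663120 with -0.18, from 66388176 to 70672820 with -0.22 and from 122215626 to 136946295 with -0.16, and their means on the control array were -0.04, -0.07 and -0.03. The control array had 4 stretches of this kind. They were lowered from 1 to 9970620 with a mean of -0.16 over 773 probes and from 46112176 to 53585295 with -0.11 over 583 probes. They were raised from 19396326 to 34279620 with 0.09 over 1310 probes and from 72718876 to 120495170 with 0.09 over 3929 probes. The tumor array had means of -0.37, -0.32, 0.10 and 0.14 in these 4 stretches.

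The far end of the chromosome held a low window next to a high one. The window from 136 to 137 Mb was the second lowest of the tumor array, with a median of -0.48 (95% interval over probes -0.59 to -0.40), against -0.17 on the control array. The next window had 0.28 in the tumor and 0.09 in the control tissue, and this step of 0.76 was the largest between neighbouring windows of the tumor array, a feature picked out after its values were seen. With the deposited log ratio a loss of 97 probes was called from 135862151 to 136869520 with a mean of -0.45, and with the limit on the mean during the search it had -0.49, in both cases lower than the loss at the start, which had -0.38 and -0.41. Over probes well above background in both channels, a gain of 48 probes was called from 136957351 to 138294945 with a mean of 0.31. The tumor array then had 8 called intervals, of which 4 were gains. The last window, from 139 to 140 Mb, had 0.10 on the tumor array (-0.07 to 0.23) and 0.08 on the control array (-0.10 to 0.25). Over the last 10 Mb the median was -0.09 in the tumor and -0.05 in the control tissue.

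In all, the tumor array had 6 called intervals on this chromosome, with a summed length of 29.4 Mb, and the control array had 5, with a summed length of 0.767 Mb. The tumor length was 12.1 Mb with the deposited log ratio and under 1 Mb with normexp, with centring on the mode, with a trend on local brightness removed and with the control array subtracted. The 4 losses of the tumor array held 18.5% of the probes of this chromosome, where called losses held 6.5% of all autosomal probes. Without the longest loss, whose mean lay at the limit, the other 3 held 7.65%. Its 2 gains held 0.712%, where called gains held 0.708%. The other gain of the tumor array ran from 75591926 to 76294970 with a mean of 0.31 over 60 probes (SD 0.46), and the control array had 0.26 (SD 0.61). It was not called over probes well above background in both channels, with normexp, with centring on the mode, with a trend on local brightness removed or with the control array subtracted. A score of at least 12 ended this call too. The tumor lay lower than the control tissue in each of its 4 losses, by 0.18 to 0.25 on the log2 scale, and above it in the gains by 0.16 and 0.05. These intervals were chosen by the tumor array's own values, so the comparison favours it and is a description. With a trend on local brightness removed the tumor was the higher of the tissues in the losses from 9225951 (-0.063 against -0.071) and 14791676 (0.055 against 0.038) and the lower in the gain from 75591926 (0.17 against 0.21). The control array had no called loss here, where called losses held 0.00357% of all its autosomal probes. Its lowered stretch from 1 to 9970620 had a score of 10.4 and missed only the limit on the mean, and with normexp a loss from 19426 to 9625595 was called there with a mean of -0.36. Within the span of the tumor array's loss from 14791676, normexp gave a called loss on the control array too. It ran from 14847176 to 16745320 with a mean of -0.36 over 135 probes. The 5 gains of the control array held 0.36% of the probes, against 0.154% in called gains over all autosomes. Apart from the gain of 26 probes they rested on 3, 3, 3 and 5 probes. In each of these 4 short gains at most 1 probe was well above background in both channels of the control array.

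**Figure D3:**
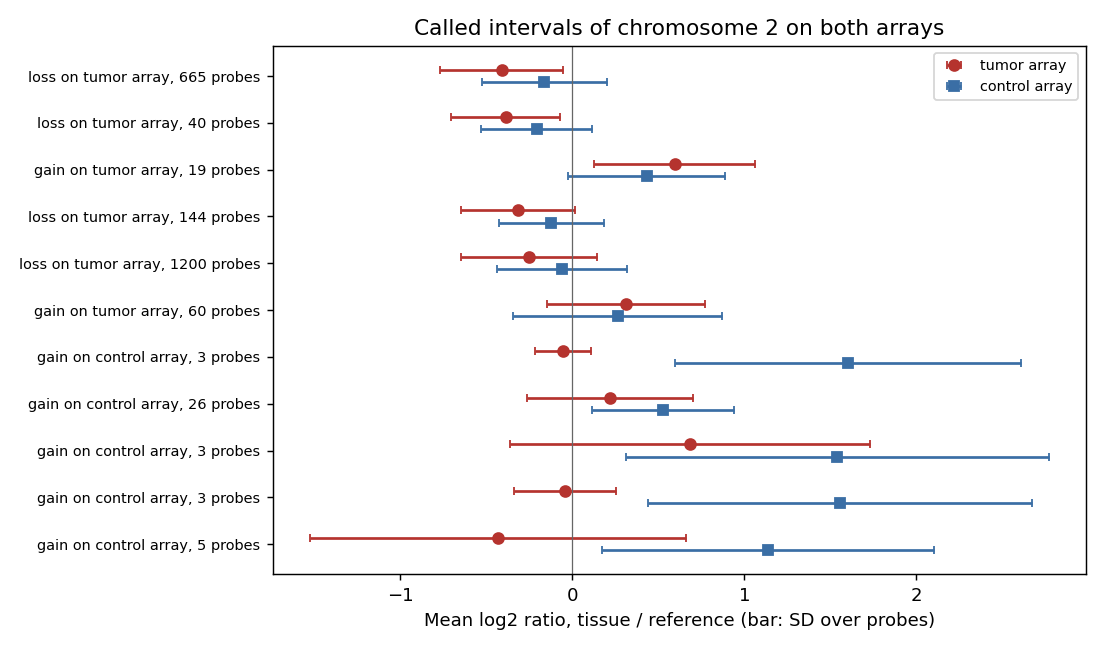
Mean log2 ratio of tissue over reference in each interval called on chromosome 2, on the tumor array (circles) and the control array (squares), with bars for the SD over probes. The 4 losses called on the tumor array, between -0.41 and -0.25, have control array means between -0.21 and -0.06, and the short gains of the control array have SDs near 1.

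Differences between the tissues within windows were smaller than the tumor array's own range. Tumor minus control had an SD of 0.146 over windows and ran from -0.32 to 0.33. A difference of at most -0.25 was found in 3 windows, where 3.82% of all autosomal windows had one, and a difference of at least 0.25 in 4 windows, where the share over all autosomes was 2.66%. The 3 lowest were the windows from 136 to 137 Mb with -0.32, from 46 to 47 Mb with -0.31 and from 2 to 3 Mb with -0.27. The 3 highest were those from 88 to 89 Mb with 0.33, from 34 to 35 Mb with 0.29 and from 86 to 87 Mb with 0.28. On the control array itself, the lowest windows after the first were those from 5 to 6 Mb with -0.23 and from 6 to 7 Mb with -0.21, and the tumor array had -0.41 in both. The third highest of the control array was the window from 89 to 90 Mb with 0.20, against 0.30 on the tumor array.

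Signal strength moved with these ratios. In the 25 low windows of the tumor array the median reference signal was 321 and the median tumor signal 141, and in the 18 high windows they were 50.1 and 35.2. On the control array the reference signal in the same windows was 252 and 42.1 and the tissue signal 114 and 23.7, so these windows were bright or dim on both arrays and in both channels. Over the 140 windows, as a description, the tumor array's medians had a Pearson correlation of -0.93 with the mean log2 reference signal of the control array, and the control array's medians one of -0.82 with that of the tumor array. The points share probes and their base composition, and neighbouring windows are not independent. When a trend on local brightness, learned on the other 17 autosomes, was removed, the SD over windows was 0.0832 in the tumor and 0.0600 in the control tissue. The first 10 Mb then had a median of -0.049 for the tumor and -0.055 for the control tissue. The longest loss then had a mean of 0.02 on the tumor array, and the 19-probe gain, though no longer called, had means of 0.53 in the tumor and 0.40 in the control tissue. The window from 59 to 60 Mb was then the highest on both arrays, at 0.35.

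**Figure D4:**
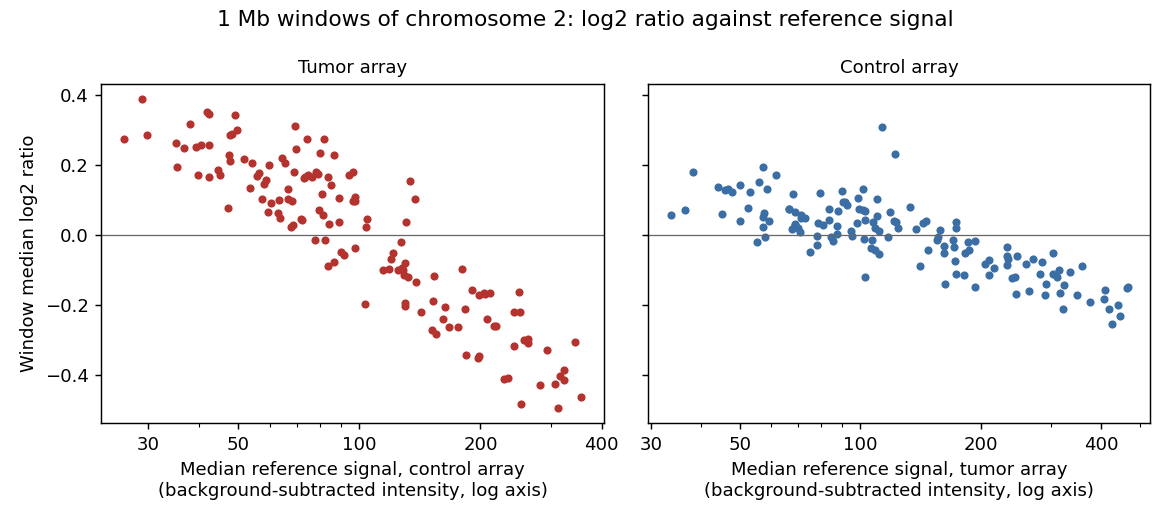
Median log2 ratio of each 1 Mb window of chromosome 2 against the median reference signal of the same window on the other array (background-subtracted intensity, log axis), tumor array left and control array right. Bright windows have low ratios and dim windows high ones, with correlations of -0.93 and -0.82 to the mean log2 reference signal, and the windows of 0.31 and 0.23 lie above the rest of the control array.

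Beside the other autosomes, chromosome 2 had the widest spread of windows on the tumor array, with an SD of 0.223 against 0.195 over the windows of the other 17. On the control array its SD of 0.103 was the third largest. Its share of low windows on the tumor array had rank 5, behind chromosomes 12, 6, 3 and 7, and its share of high windows also had rank 5. Its first 10 Mb were second lowest among chromosome starts on the tumor array, where chromosome 3 had -0.41, and lowest on the control array. Its last 10 Mb ranked 16 of 18 from the lowest on the tumor array. These ranks describe 1 array each and carry no test.

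**Figure D5:**
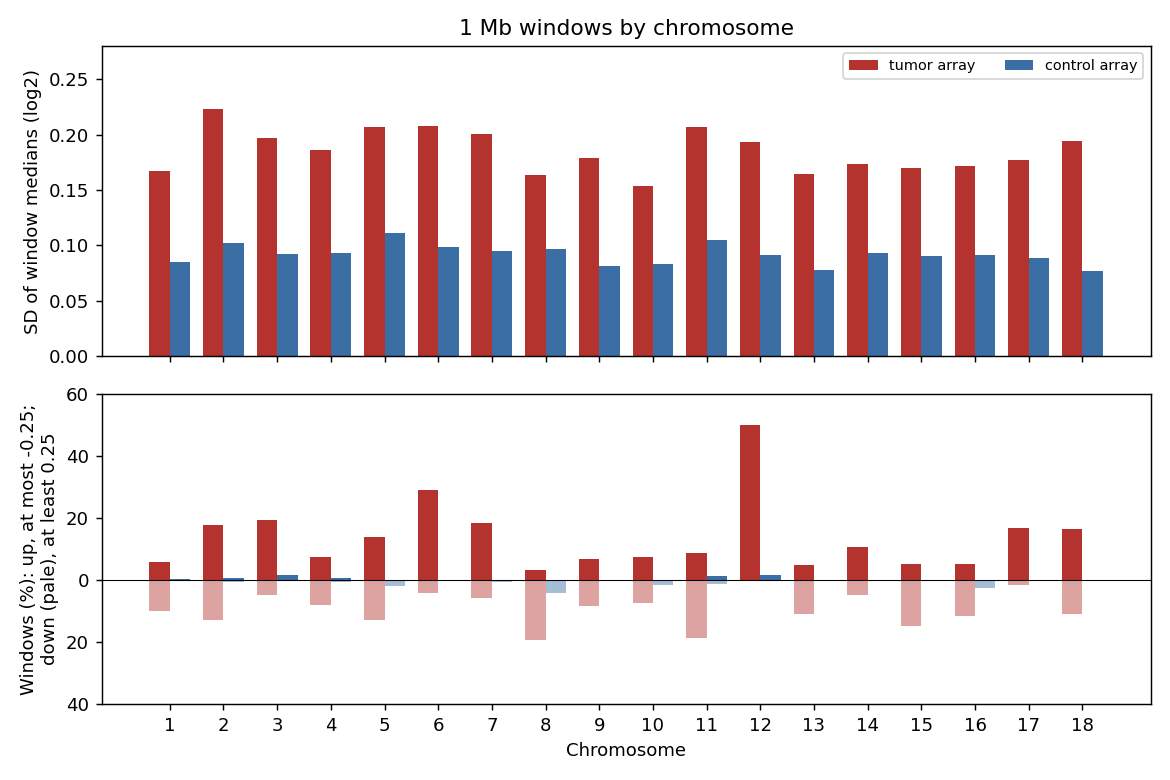
SD of the window medians of each autosome (top) and share of windows with a median of at most -0.25 (bars upward) or at least 0.25 (pale bars downward), for the tumor array in red and the control array in blue. Chromosome 2 has the tallest bar for the tumor array in the top panel, 0.223, with 17.9% low and 12.9% high windows.

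Single probes were named among the 8278 that were well above background in both channels of both arrays. The lowest by the mean of both arrays lay at 63308851 to 63308895, with -1.82 in the tumor and -1.28 in the control tissue, and its reference signal of 12781 on the tumor array was far above the chromosome's median. The next lay at 35615276 to 35615320, with -2.34 and -0.76. The other 3 of the lowest 5 lay at 28881276, 116453801 and 86991626, with -1.68, -1.41 and -1.26 on the tumor array and -1.22, -1.22 and -1.16 on the control array. The highest lay at 21549726 to 21549770, with 0.87 in the tumor and 1.42 in the control tissue, and a second lay at 22311001 to 22311045, with 1.11 and 1.12. Both stand in the raised stretch that ends at 22482170. The other 3 of the highest 5 lay at 87301501, 134239701 and 92617476, with 1.25, 1.23 and 0.73 on the tumor array and 0.99, 0.97 and 1.38 on the control array. Each of the 10 probes was on the same side on both arrays, which ranking by the mean favours. Over all 11097 probes, 3.02% lay below -1 on the tumor array, as did 3.03% of the autosomal probes, and 2.21% lay above 1, against 1.998%. The control array leaned the other way, with 1.90% of these probes below -1 and 3.34% above 1, where the shares over the autosomes were 1.9988% and 3.56%.

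The files pair no probe with a gene, and the positions could not be carried over to an annotated build, so no gene is given a value. As background on what the chromosome carries, the RefSeq annotation of Sscrofa11.1 places 1998 protein-coding genes on chromosome 2. A list of 44 growth, tumor suppressor, vessel, liver and cytokine genes was drawn up for this chromosome, so their number is no result. The annotation places 42 of them on it, and H19 and IL3 were not found. In order along the chromosome the 42 begin with HRAS, a small GTPase of growth signalling, and the imprinted region of IGF2, INS, which encodes insulin, TH, KCNQ1 and CDKN1C, an inhibitor of cyclin-dependent kinases. They go on with CCND1 (cyclin D1), the tumor suppressor MEN1 and the endothelial growth factor VEGFB. Further along are the tumor suppressor WT1, NOTCH3, a receptor of vascular smooth muscle, the chromatin remodeller SMARCA4 and the kinase STK11. The later part holds RASA1, APC, the antagonist of Wnt signalling, the cytokine genes IL5, IL13 and IL4, and last CSF1R and PDGFRB, the receptor of pericytes. Which of them lie in a called interval was not analysed here.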

How the data were processed

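The authors hybridised tissue DNA (Cy3) against reference liver DNA (Cy5) and read the scans with Feature Extraction 11.0.1.1 from Agilent. For each spot they deposited intensity values (the median signal, the median background, and a processed signal after background subtraction and 1 linear dye factor per channel) and a log10 ratio of red over green. The series table holds the same deposited log10 ratios (largest difference 0, column medians 0 and -0.000937). Here log2 ratios of tissue over reference were taken from the processed signals without loess, spots flagged as outliers were dropped, and the median over chromosomes 1 to 18 was subtracted per array. Windows of 1 Mb needed 5 probes. Intervals used the noise of the whole array, 0.401 for the tumor and 0.422 for the control, and intervals with a smaller mean were removed once the search had ended. The caller was tested on simulated data at the 11097 probe positions of chromosome 2 and found 25 of 25 seeded intervals with 0 others. How often it makes false calls in the measured ratios was not tested. Exact 95% order-statistic intervals describe probes or windows. Windows named are the 3 lowest and 3 highest per array and by difference, the first and the last, beside intervals of at least 20 probes. Probes named are the 5 lowest and 5 highest. Shorter intervals are given because they are few. Chromosome, lists and rules were chosen with earlier results of these data known. Tables were handled in Python 3.11.15 with pandas 2.3.3 and numpy 2.4.6, the caller ran in numba 0.67.0, the brightness trend in statsmodels 0.14.6 and intervals in scipy 1.17.1, figures were drawn with matplotlib 3.10.9, and normexp (offset 50) came from limma 3.58.1 in R 4.3.3.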

Additional observations from a re-analysis of the deposited data

Results flagged for a closer look

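In 3 short gains called on the control array, the same probes had a mean below 0 on the tumor array. In order of position these tumor means were -0.05, -0.04 and -0.43, of which the first and second lay close to 0. The difference between the arrays was not tested. These gains were chosen by the control array's own values, which favours a difference of this sign. At 39150626 to 39180270 the tumor minus control difference of the means was -1.66, with probe values of 0.45, 2.05 and 2.31 on the control array and of 0.12, -0.07 and -0.21 on the tumor array. At 123872301 to 123893620 it was -1.60, with 2.49, 1.85 and 0.32 on the control array and -0.38, 0.14 and 0.12 on the tumor array. At 138189451 to 138246845 it was -1.57, and the 5 probes ranged from 0.09 to 2.53 on the control array and from -1.50 to 1.27 on the tumor array. The median reference signals of the second and the last of them on the control array were 3.26 and 11.9, and that of the first lay below the last, where the chromosome's median was 96.9. The part of dim spots in these differences was not tested.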

How the results depend on the processing

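The median over windows of the tumor array, 0.044, stayed within its 95% interval under the 9 alternatives run. Its sign changed, to -0.021 with centring on the mode and to -0.048 with windows of 5 Mb. Neighbouring windows are not independent, so this interval is a description only. The median over windows of the control array moved to 0.075 with centring on the mode. The 43 windows of the tumor array beyond 0.25 in size became 1 with the brightness trend removed, 4 with the control array subtracted, 6 of 28 with windows of 5 Mb and 87 of 280 with windows of 0.5 Mb. The 2 of the control array became 1 with the deposited log ratio, 27 with normexp, of which 24 were low, 4 with centring on the mode, 1 with the brightness trend removed, 0 with windows of 5 Mb and 11 with windows of 0.5 Mb. The first 10 Mb had -0.53 with normexp, -0.46 with centring on the mode, -0.049 with the brightness trend removed, -0.16 with the control array subtracted and -0.43 over the first 5 Mb on the tumor array, and -0.38, -0.12 and -0.055 with the first 3 of these on the control array. Each of these values lay below 0, but with the brightness trend removed the 95% interval over windows on the tumor array, -0.11 to 0.0066, reached above 0. The 6 tumor array intervals became 2 with normexp, 1 with centring on the mode, 3 with the brightness trend removed, 19 with the limit on the mean during the search, 2 where the score had to reach 12 and 13 where a mean of 0.1 sufficed. Their length of 29.4 Mb became 12.1 Mb with the deposited log ratio (4 intervals), 0.661 Mb with normexp, 0.0222 Mb with centring on the mode, 0.252 Mb with the brightness trend removed, 0.154 Mb with the control array subtracted (5 intervals), 57 Mb with the limit during the search, 26.1 Mb at a score of 12 and 107 Mb at a mean of 0.1. The 5 control array intervals became 1 with probes well above background, 9 with the deposited log ratio, 2 with normexp, which were losses of 11.5 Mb, 0 with centring on the mode, 3 with the brightness trend removed, 10 with the limit during the search, of which 1 was a loss, 7 where a mean of 0.1 sufficed, of which 2 were losses, and 0 with a score of at least 12. Apart from window number, limit and score, the cause was not tested. The GC correction was not run, because no probe sequence was at hand. No paired analysis was possible because each tissue has 1 array and the labels carry no replicate numbers.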

Other observations

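With the brightness trend removed, the tumor array had 3 intervals on chromosome 2 that were not called without this step, and they are named after their values were seen. A loss from 110022276 to 110213795 lay inside the wide raised stretch. Before removal of the trend, its 14 probes had a median of -0.33 in the tumor, with -1.94 as the lowest value, and a median of -0.01 in the control tissue, with values from -1.16 to 2.06. On the tumor array 7 of the 14 were well above background in both channels, and 6 of these lay above 0, with -0.15 as their lowest value. The other 7 lay below 0, from -1.94 to -0.52. Since a low tissue signal itself keeps a probe from being well above background, this split is a description only. The 50 probes on each side had a median of 0.24. A loss of 5 probes at 98812201 to 98852020 averaged -0.91 in the tumor (SD over probes 0.53) and -0.07 in the control tissue (SD 1.15), and none of its probes was well above background in both channels on either array. A gain of 3 probes from 84372026 to 84392420 had means of 1.69 (SD 1.27) and 0.55 (SD 0.45), but 2 of its probes were not well above background in both channels on either array, and the one that was had 0.62 in the tumor and 0.04 in the control tissue.

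Subtracting the control array probe by probe gave 5 intervals of 3 to 5 probes, each with at least 1 probe that was not well above background in both channels on either array. The only gain among them, from 19346376 to 19365845, had a mean of 0.49 on the tumor array and of -1.30 on the control array. One of the losses, from 110062051 to 110085220, shares 3 probes with the 14-probe loss, with means of -0.67 in the tumor and 0.99 in the control tissue. Of the 3, 2 were not well above background in both channels on either array, and the third probe, which was, had -0.15 in the tumor and -0.12 in the control tissue. Another loss, from 138189451 to 138246845, covered the same probes as a gain called on the control array. The loss from 39166351 to 39191370 overlapped the control array's gain from 39150626. It had means of -0.16 in the tumor and 1.55 in the control tissue.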
